A study of Mus musculus with 12 samples.

Results

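The genes described here are the E2F transcription factors E2f1 to E2f8 and the pocket proteins Rb1 and Rbl1, 10 genes of the 18194 that could be read from the array. They were chosen by name, as every probe set whose platform symbol is exactly one of these 10. This gave 22 of 45101 probe sets, and the probe set brightest on average over the 12 arrays stands for each gene. The cells were granule cell progenitors, the dividing precursors of cerebellar granule neurons, taken from mice at postnatal day 8 and enriched on a Percoll density gradient. RNA was read on Affymetrix Mouse Genome 430 2.0 arrays, and the deposited values are log2 expression, so that a difference of 1 is a doubling.

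There were 4 groups of 3 arrays, and each array held cells pooled from 5 mice. The groups were wild type hemisphere (the lateral cerebellum), wild type vermis (the midline), SmoM2 hemisphere and SmoM2 vermis. SmoM2 mice had the genotype Atoh1-CreER/+; R26LSL-SmoM2-YFP and received tamoxifen at 200 ug/g on postnatal day 2. In these mice a Cre recombinase that needs tamoxifen is under control of the progenitor gene Atoh1. It switches on an activated form of the hedgehog pathway protein Smoothened tagged with YFP. Cells in which Cre did not act keep the silent allele, and the preparation was not described as sorted for YFP. All mice had a mixed C57BL/6 and Swiss Webster background. The labels do not state whether wild type mice received tamoxifen, nor the sex of the mice. The comparisons ask how an activated hedgehog pathway changes progenitors, and whether hemisphere and vermis differ.

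E2F factors bind DNA with a partner protein, Tfdp1 or Tfdp2, and control the genes that a cell needs to copy its DNA. E2f1, E2f2 and E2f3 are known mainly as activators, E2f4 and E2f5 as repressors held at promoters with the pocket proteins Rbl1 and Rbl2, E2f6 as a repressor that works without pocket proteins, and E2f7 and E2f8 as repressors that need no partner and are themselves E2F targets. Rb1 holds the activators in check until cyclin D with Cdk4 or Cdk6 phosphorylates it, and hedgehog signalling drives the cyclin D genes in granule cell progenitors.

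Read by the brightest probe set of each gene, most members were higher in SmoM2 progenitors, E2f4 was lower, and the changes were small. Averaged over the regions, the main probe sets of 6 members rose (E2f1, E2f3, E2f5, E2f7, E2f8 and Rbl1), by 0.38 to 0.59 log2 units, E2f4 fell by 0.40, and E2f2, E2f6 and Rb1 did not pass the test. With all probe sets of a gene averaged, 4 of these 7 calls were left. Those of E2f8 and Rbl1 missed the threshold (adjusted p = 0.0768 and 0.0723), and E2f5, whose probe sets disagree, gave -0.03 (adjusted p = 0.715). For E2f8 and Rbl1 the probe sets added were dimmer, at 3.20 against 8.85 and at 2.96 to 5.90 against 8.20. The part of that dimness in the lost calls was not tested. The test was limma's moderated linear model over all 12 arrays, with p adjusted by Benjamini-Hochberg over all 18194 genes and a threshold of 0.05. Of all genes, 15.4% rose and 20.1% fell in that comparison, 35.5% in all. Same-numbered hemisphere and vermis arrays varied together within a genotype, which this fit leaves out. With that pairing as a random block 7 members were still called for the average, and the share of all genes was 23.7%. The median difference of the 10 members was 0.38, against -0.06 over all genes. Within single regions fewer members passed: 4 in hemisphere (E2f3, E2f7 and E2f8 higher, E2f4 lower) and 5 in vermis (E2f1, E2f3, E2f5, E2f7 and E2f8, all higher). The share of all genes called was 14.8% in hemisphere, 7.62% higher and 7.18% lower, and 17% in vermis, 7.56% higher and 9.46% lower. The medians of the members were 0.30 in hemisphere and 0.39 in vermis, against -0.05 and -0.06 for all genes.

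The arrays themselves show the same ordering. In hemisphere the 3 SmoM2 arrays lay wholly on one side of the 3 wild type arrays for 6 of 10 members, as they did for 31.7% of all genes. In vermis this held for 9 of 10 members, all but E2f6, and for 39.8% of all genes. The count in hemisphere was not steady, since leaving out any 1 of 7 arrays brought it from 4 to between 0 and 2. These arrays were replicates 2 and 3 of wild type hemisphere, all 3 of SmoM2 hemisphere, and replicate 2 of each vermis group, and the value was 0 without SmoM2 hemisphere replicate 3. In vermis the count fell from 5 to 1 without wild type vermis replicate 2, and to 3 without wild type vermis replicate 3 or without SmoM2 vermis replicate 1 or 3. The 7 calls of the average over both regions, by main probe sets, held whichever array was left out.

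**Figure D1:**
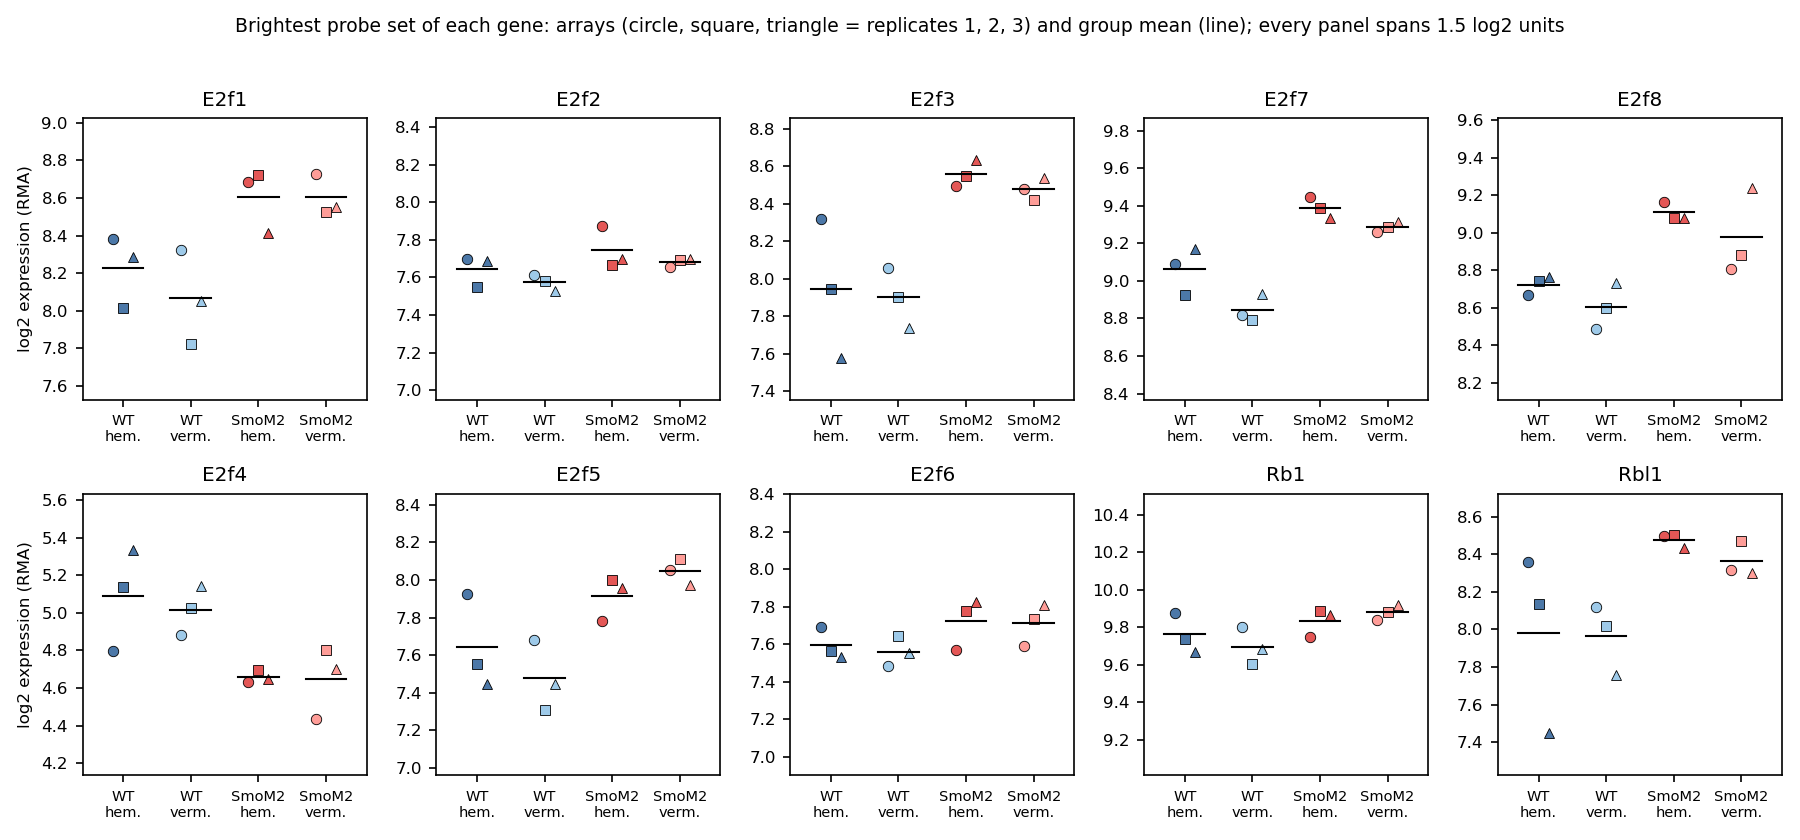
Log2 expression (RMA values, y axis) of the brightest probe set of each of the 10 genes on the 12 arrays, by genotype and region on the x axis (WT, wild type; hem., hemisphere; verm., vermis). Points are arrays and lines are group means of 3 arrays, and each panel spans 1.5 log2 units around its own level. All SmoM2 points lie above all wild type points for E2f1, E2f3, E2f7 and E2f8, and the wild type points of E2f3 and Rbl1 are spread more widely than the SmoM2 points.

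One array stands apart in its controls and touches several of these results. Wild type hemisphere replicate 3 had the lowest signal for the bacterial control RNAs dap (7.77, against 8.83 to 11.0 on the others) and bioB (6.98, against 8.41 to 9.31). It also had the smallest difference between the 3′ and 5′ probe sets of Actb, 0.46 against 0.66 to 1.10. The Actb difference and dap also moved with genotype in hemisphere, while bioB overlapped (6.98 to 8.73 in wild type and 8.41 to 9.31 in SmoM2). The Actb difference was 0.79, 0.66 and 0.46 on the wild type arrays and 1.10, 0.93 and 0.90 on the SmoM2 arrays, and dap was at 7.77 to 9.50 against 10.01 to 11.0. In vermis the Actb difference overlapped, at 0.88 to 0.90 in wild type and 0.89 to 1.07 in SmoM2. So did dap there, at 9.77 to 10.41 in wild type and 10.35 to 10.52 in SmoM2. The part of these shifts in the hemisphere differences of the members was not tested. The same array had the lowest E2f3 and Rbl1 and the highest E2f4 of all 12. With this array left out, 1 member was called in hemisphere, 6 in vermis and 7 on average over the regions. Correlations between arrays over all genes were 0.978 or higher, and no 2 arrays held identical values.

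Markers of cell types and the state of the pathway were read from other genes. The mean log2 level of 6 granule cell progenitor markers was 9.81 to 10.3 over the 12 arrays, and that of the Purkinje cell markers 3.55 to 4.72. Levels of different probe sets cannot be ranked against each other, so these values compare arrays and do not give the share of a cell type. Gli1, a direct target of hedgehog signalling, was 3.21-fold higher in SmoM2 hemisphere (adjusted p = 2.52e-06) and 2.83-fold higher in SmoM2 vermis (adjusted p = 7.84e-06, limma). Markers of other cells moved with genotype, where 7.18% of all genes fell in hemisphere and 9.46% in vermis. All 5 oligodendrocyte genes measured of 6 listed fell in both regions, from a mean level of 9.03 to 9.89 on the wild type arrays to 7.50 to 8.26 on the SmoM2 arrays. Of 4 microglial genes 3 fell in each region (6.43 to 6.61 against 5.41 to 6.05), and of 2 GABAergic interneuron genes measured 1 fell in hemisphere and both in vermis. Of the 4 genes of differentiating granule cells 2 fell in each region, Neurod1 and Cntn2. Of the 6 progenitor markers Atoh1 rose in both regions, while 3 fell in hemisphere and 2 in vermis. Among 5 astroglial genes 1 rose and 1 fell in each region, and 0 of 4 endothelial genes were called in hemisphere and 2 fell in vermis. No Purkinje gene of 3 was called within a region, and 1 of 2 erythroid genes measured fell, in vermis. In pooled tissue, fewer cells of a type and less RNA per cell cannot be told apart, and the part of these shifts in the members' differences was not tested.

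The promoters of the 3 members called in both regions, E2f3, E2f7 and E2f8, are shown because these genes share that call. The RefSeq table (build GRCm38.p6) holds windows from 250 bases before to 50 bases after the start for 7 of the 10 members, 9 windows in all. The 250 bases before the start are printed 5′ to 3′ on the strand of the gene, with the matches in capitals. The motifs searched, on both strands, were the E2F sites TTTCGCGC, TTTGGCGC and TTTCCCGC, the CHR elements TTTGAA and TTCGAA, which recruit the DREAM complex at cell cycle genes, and the Gli site GACCACCCA.
E2f3, chr13:29986064-29986313, minus strand: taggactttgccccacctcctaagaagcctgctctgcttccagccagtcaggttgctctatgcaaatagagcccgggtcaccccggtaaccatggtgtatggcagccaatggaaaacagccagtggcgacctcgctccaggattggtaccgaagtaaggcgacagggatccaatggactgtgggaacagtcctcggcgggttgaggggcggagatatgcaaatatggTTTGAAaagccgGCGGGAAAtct
E2f7, chr10:110745189-110745438, plus strand: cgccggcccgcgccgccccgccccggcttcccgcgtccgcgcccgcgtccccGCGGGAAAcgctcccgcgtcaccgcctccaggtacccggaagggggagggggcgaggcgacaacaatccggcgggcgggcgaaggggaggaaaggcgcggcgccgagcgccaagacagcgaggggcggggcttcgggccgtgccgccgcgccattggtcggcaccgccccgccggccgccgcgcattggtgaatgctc
E2f8, chr7:48881597-48881846, minus strand: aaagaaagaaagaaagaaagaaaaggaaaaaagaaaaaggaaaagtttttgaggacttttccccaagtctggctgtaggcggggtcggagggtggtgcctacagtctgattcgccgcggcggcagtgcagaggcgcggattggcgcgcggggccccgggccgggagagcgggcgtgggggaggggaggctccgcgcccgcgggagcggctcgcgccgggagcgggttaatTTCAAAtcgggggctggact

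The E2f3 window held TTTGAA beginning 23 bases before the start and TTTCCCGC, on the opposite strand, 11 bases before it. A second E2f3 start in the table had no match. In E2f7 the TTTCCCGC match was on the opposite strand and began 198 bases before the start. E2f8 had only TTTGAA, on the opposite strand, 20 bases before its start. Among the other members Rbl1 held TTTCGCGC 18 bases before its start, and E2f2 held TTTGGCGC 39 bases after one start and TTTGAA 31 bases before another. The only window held for E2f1 and the only one held for E2f6 had no match to these letters. Other starts of these genes were not searched, so their promoters as a whole were not judged. Any of the 3 E2F sites occurred in 1.84% of all 32851 windows, TTTCCCGC in 1.07%, TTTCGCGC in 0.323% and TTTGGCGC in 0.514%. TTTGAA is short and occurred in 17.9%, TTCGAA in 1.56% and GACCACCCA in 0.253%, and neither TTCGAA nor GACCACCCA was found in a window of a member.

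Among the activators, the main probe sets of E2f3 and E2f1 rose averaged over the regions and E2f2 did not pass the test. E2f3, an activator that promotes entry into S phase, read 8.32, 7.95 and 7.58 in wild type hemisphere, 8.06, 7.90 and 7.74 in wild type vermis, 8.49, 8.55 and 8.63 in SmoM2 hemisphere and 8.48, 8.42 and 8.54 in SmoM2 vermis (log2, replicates 1, 2 and 3). Every SmoM2 array was above every wild type array, and the wild type values were the more scattered. The difference was 0.61 ± 0.15 in hemisphere (SE, 1.53-fold, adjusted p = 0.015) and 0.58 ± 0.15 in vermis (1.49-fold, adjusted p = 0.0187, limma). Without wild type hemisphere replicate 3, its lowest array, the difference in hemisphere was 0.43 with an adjusted p of 0.0514. That call was also lost without SmoM2 hemisphere replicate 3 (adjusted p = 0.0595) and with only the 2 hemisphere groups fitted (adjusted p = 0.0508). In vermis the call was lost without replicate 2 or 3 of wild type or replicate 1 or 3 of SmoM2, with adjusted p between 0.0534 and 0.0773. A dimmer E2f3 probe set, 1427462_at, lay at 4.77 to 5.29 and showed no call, with 0.07 averaged over the regions (95% interval -0.12 to 0.26). With both probe sets averaged the vermis difference was 0.29 and not called (adjusted p = 0.0805).

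E2f1, the founding member of the family and an activator, read 8.38, 8.02 and 8.29 in wild type hemisphere, 8.32, 7.82 and 8.05 in wild type vermis, 8.69, 8.72 and 8.41 in SmoM2 hemisphere and 8.73, 8.53 and 8.55 in SmoM2 vermis. The highest wild type array, at 8.38, lay just under the lowest SmoM2 array, at 8.41, so the genotypes did not overlap. E2f1 was 0.54 ± 0.14 higher in SmoM2 vermis (1.45-fold, adjusted p = 0.0198) and 0.38 ± 0.14 higher in hemisphere, where the adjusted p of 0.087 missed the threshold in the limma fit. The vermis call was lost without wild type replicate 2 or 3 or without SmoM2 replicate 1, with adjusted p from 0.0577 to 0.0908. The probe set 1431875_a_at moved the same way by 0.38 averaged over the regions (adjusted p = 0.0269 over all probe sets). The third, 1447840_x_at, was dim, with an average of 3.54 against 8.38 for the main one. It gave 0.13 averaged over the regions (adjusted p = 0.327) and 0.002 in vermis (adjusted p = 0.993, limma over all probe sets). With the 3 averaged the vermis difference was 0.32 and not called (adjusted p = 0.096).

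E2f2, the remaining activator, read 7.70, 7.55 and 7.69 in wild type hemisphere, 7.61, 7.58 and 7.53 in wild type vermis, 7.87, 7.67 and 7.70 in SmoM2 hemisphere and 7.65, 7.69 and 7.70 in SmoM2 vermis. Its groups lay close together and overlapped in hemisphere. The difference averaged over the regions was 0.10 with a 95% interval of -0.04 to 0.25 (adjusted p = 0.232), and a second probe set gave 0.07 with an interval of -0.11 to 0.26. An increase as large as the one E2f3 showed lies outside the interval of the first.

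E2f7 and E2f8, the repressors that need no partner, rose in both regions. E2f7 read 9.09, 8.93 and 9.17 in wild type hemisphere, 8.82, 8.79 and 8.93 in wild type vermis, 9.45, 9.39 and 9.33 in SmoM2 hemisphere and 9.26, 9.29 and 9.31 in SmoM2 vermis. The highest wild type array was at 9.17 and the lowest SmoM2 array at 9.26. The rise was 0.33 ± 0.10 in hemisphere (1.25-fold, adjusted p = 0.0347) and 0.44 ± 0.10 in vermis (1.36-fold, adjusted p = 0.00653, limma). The vermis call held under all 22 other settings and left-out arrays. In hemisphere it was lost without wild type replicate 2, without any of the SmoM2 hemisphere replicates, or without SmoM2 vermis replicate 2, with adjusted p from 0.0507 to 0.124. It was also lost after another quantile normalization (0.27, adjusted p = 0.0748) and with only the 2 hemisphere groups fitted (adjusted p = 0.11). E2f7 has 1 probe set on the array.

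E2f8, its close relative, read 8.67, 8.74 and 8.76 in wild type hemisphere, 8.49, 8.60 and 8.73 in wild type vermis, 9.17, 9.08 and 9.08 in SmoM2 hemisphere and 8.81, 8.88 and 9.24 in SmoM2 vermis. SmoM2 arrays were again all above wild type arrays, with SmoM2 vermis replicate 3 well above the other 2 of its group. The difference was 0.38 ± 0.12 in hemisphere (adjusted p = 0.0405) and 0.37 ± 0.12 in vermis (adjusted p = 0.0431). Both calls sat near the threshold: 14 of 22 alternatives lost the hemisphere call and 13 the vermis call, among them every fit without an array of SmoM2 hemisphere. Without SmoM2 vermis replicate 3 the vermis difference was 0.24 (adjusted p = 0.163). Averaged over the regions E2f8 was 0.38 higher (1.30-fold, adjusted p = 0.00344, limma), and this held without any single array. The other E2f8 probe set, 1444319_at, was very dim. It averaged 3.20, against 8.85 for the main one, and lay below the lower quartile of the array on 11 of 12 arrays. It gave -0.09 (95% interval -0.24 to 0.05), and with both averaged the difference was 0.14 and not called (adjusted p = 0.0768, limma).

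**Figure D2:**
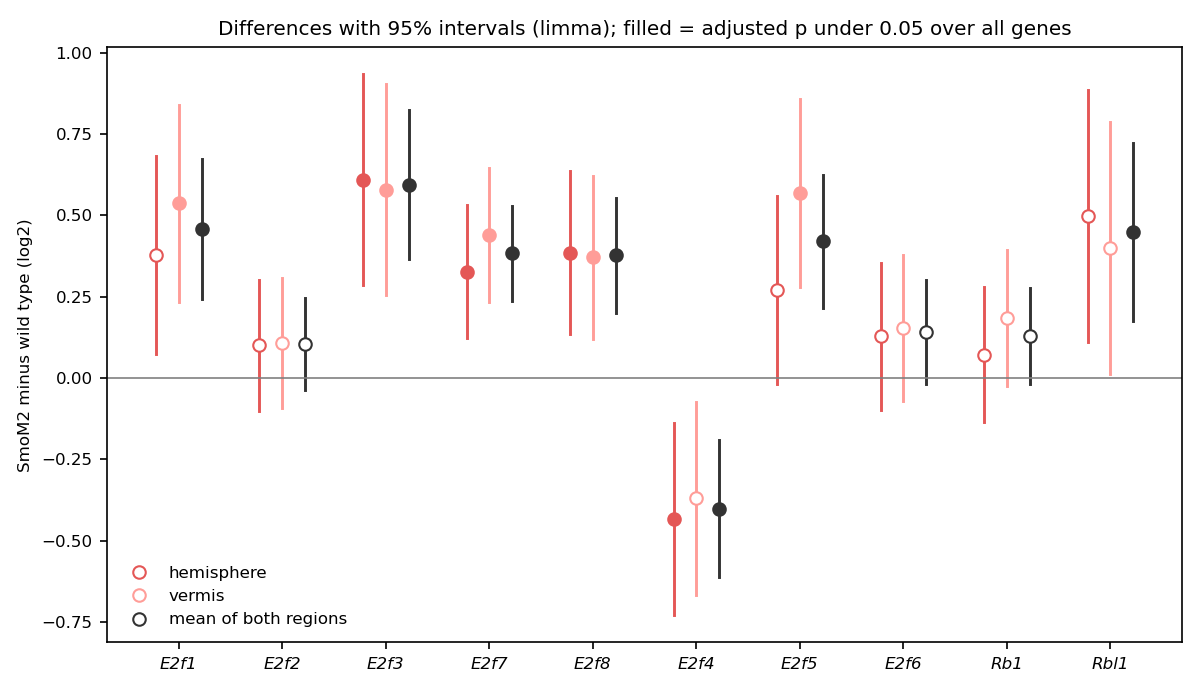
SmoM2 minus wild type (log2, y axis) for each of the 10 genes in hemisphere, in vermis and averaged over the regions, with 95% intervals from the limma fit of 12 arrays. Filled points have an adjusted p under 0.05 over all genes. Of the averages 6 are filled above 0 and E2f4 is filled below it, at -0.40, while the intervals of E2f2, E2f6 and Rb1 include 0.

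E2f4 was the one member whose main probe set fell. This repressor, a part of the DREAM complex in resting cells, read 4.80, 5.14 and 5.34 in wild type hemisphere, 4.88, 5.03 and 5.14 in wild type vermis, 4.63, 4.69 and 4.65 in SmoM2 hemisphere and 4.44, 4.80 and 4.70 in SmoM2 vermis. Each SmoM2 group lay below the wild type group of its region, although the lowest wild type hemisphere array, at 4.80, was level with the highest SmoM2 vermis array. The fall was 0.43 ± 0.14 in hemisphere (fold 0.741, adjusted p = 0.0495), while vermis gave -0.37 ± 0.14 and missed the threshold (adjusted p = 0.08). Its only probe set is dim: it averaged 4.85, where the medians of the arrays ran from 4.81 to 4.87. The hemisphere call was lost in 15 of 21 alternatives. Without wild type hemisphere replicate 3, its highest array, the difference there was -0.31 (adjusted p = 0.175). The average over both regions, -0.40 (adjusted p = 0.00669), stayed called without any single array.

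E2f5, the other repressor that works with pocket proteins, gave opposite answers from different probe sets. The brightest, 1417444_at, read 7.93, 7.55 and 7.44 in wild type hemisphere, 7.68, 7.31 and 7.45 in wild type vermis, 7.78, 8.00 and 7.96 in SmoM2 hemisphere and 8.06, 8.11 and 7.97 in SmoM2 vermis. Wild type hemisphere replicate 1 reached into the SmoM2 range, and the vermis groups did not overlap. The difference was 0.57 ± 0.13 in vermis (1.48-fold, adjusted p = 0.0109) and 0.27 ± 0.13 in hemisphere (adjusted p = 0.186). Without wild type vermis replicate 2 the vermis difference was 0.48 with an adjusted p of 0.0538. Without wild type hemisphere replicate 1 the hemisphere difference was 0.41 and passed, with an adjusted p of 0.0307.

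The probe set 1447625_at, also annotated to E2f5, read 6.54, 7.47 and 7.32 in wild type hemisphere, 6.68, 6.99 and 7.01 in wild type vermis, 6.49, 6.16 and 6.17 in SmoM2 hemisphere and 6.35, 6.26 and 6.40 in SmoM2 vermis. Here every SmoM2 array was below every wild type array. It fell by 0.83 in hemisphere (adjusted p = 0.0148) and by 0.69 averaged over the regions (adjusted p = 0.00253, limma over all probe sets), and it read -0.55 in vermis (adjusted p = 0.0838). The third, 1460207_s_at, was 0.19 higher averaged over the regions (adjusted p = 0.0458). When the 3 probe sets were averaged, the difference for E2f5 over both regions was -0.03 (adjusted p = 0.715). A direction for the E2f5 gene as a whole was therefore not settled, and the part of the transcript that each probe set reads was not analysed here.

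**Figure D3:**
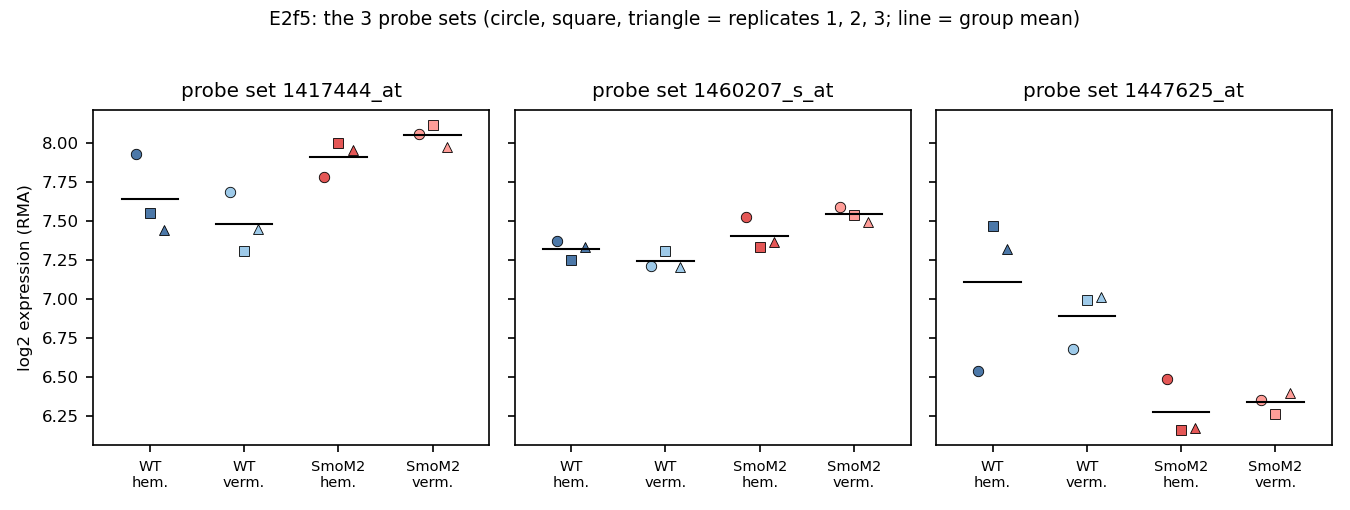
Log2 expression (RMA values, y axis) on the 12 arrays for the 3 probe sets annotated to E2f5, by genotype and region; points are arrays and lines are means of 3. The left panel rises in SmoM2 vermis to between 7.97 and 8.11, and the right panel falls from between 6.54 and 7.47 in wild type to between 6.16 and 6.49 in SmoM2.

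E2f6, the repressor that works with Polycomb proteins and keeps germline genes silent, did not pass the test. It read 7.69, 7.56 and 7.53 in wild type hemisphere, 7.48, 7.64 and 7.55 in wild type vermis, 7.57, 7.78 and 7.82 in SmoM2 hemisphere and 7.59, 7.74 and 7.81 in SmoM2 vermis. The genotypes overlapped in both regions. The average difference was 0.14 with a 95% interval of -0.02 to 0.30 (adjusted p = 0.149, limma). An increase of the size read by the main probe set of Rbl1 or E2f3 lies outside that interval. Rbl1 with all its probe sets averaged gave 0.16, which lies inside it. A dimmer E2f6 probe set, 1437914_at, gave 0.13 with a wider interval of -0.16 to 0.43. In hemisphere alone that probe set gave 0.26, with an interval of -0.16 to 0.67. Of 8 genes of the E2f6 repressor complex none rose or had an unadjusted p under 0.05 for a rise (limma), and Yaf2 alone fell, by 0.27 averaged over the regions (adjusted p = 0.00536) against a background of 20.1% of genes. Of 3 measured germline genes that E2f6 is known to repress, Smc1b, a meiotic cohesin, fell by 0.32 at the margin (adjusted p = 0.0403). That call was lost in 11 of 20 alternatives, and Stag3 and Slc25a31 did not pass. All 3 were dim, with group means of 4.01 to 4.38 for Smc1b, 3.15 to 3.32 for Stag3 and 2.35 to 2.57 for Slc25a31. The medians of the arrays ran from 4.81 to 4.87.

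Of the pocket proteins among the members, Rbl1 passed the test averaged over the regions and Rb1 did not, and the difference between them was not tested. Rb1, the retinoblastoma protein, read 9.88, 9.74 and 9.67 in wild type hemisphere, 9.80, 9.60 and 9.68 in wild type vermis, 9.75, 9.89 and 9.87 in SmoM2 hemisphere and 9.84, 9.88 and 9.92 in SmoM2 vermis. SmoM2 and wild type overlapped in hemisphere, and in vermis all SmoM2 arrays were higher by a small margin. The average difference was 0.13 (95% interval -0.02 to 0.28, adjusted p = 0.157, limma). A much dimmer Rb1 probe set, 1444400_at, averaged 3.62 and gave 0.08 (95% interval -0.22 to 0.38). Rbl1, also called p107 and itself an E2F target, read 8.36, 8.14 and 7.45 in wild type hemisphere, 8.12, 8.02 and 7.75 in wild type vermis, 8.50, 8.50 and 8.43 in SmoM2 hemisphere and 8.32, 8.47 and 8.30 in SmoM2 vermis. The SmoM2 values were tight, while the wild type values spread over almost 1 log2 unit.

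Rbl1 was 0.50 ± 0.18 higher in SmoM2 hemisphere (adjusted p = 0.0789) and 0.40 ± 0.18 in vermis (adjusted p = 0.14), both short of the threshold, and 0.45 ± 0.13 higher on average (1.36-fold, adjusted p = 0.0157, limma). Without wild type hemisphere replicate 3 the hemisphere difference was 0.23 and the average 0.31, and the average stayed called (adjusted p = 0.0133). Without wild type hemisphere replicate 1 the hemisphere difference was 0.69 and passed (adjusted p = 0.012). Without wild type hemisphere replicate 3 the vermis difference also passed, at an unaltered 0.40 (adjusted p = 0.0248). The 3 dimmer Rbl1 probe sets averaged 5.90, 3.65 and 2.96, against 8.20 for the main one, and none was called. The dimmest lay below the lower quartile of the array on all 12 arrays. With all 4 averaged the difference was 0.16 (adjusted p = 0.0723, limma).

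The scatter among wild type arrays was a feature of several members. Pooled over the regions, the SD between wild type arrays was 0.36 for Rbl1 and 0.28 for E2f3, against 0.07 and 0.06 between SmoM2 arrays. Of the 10 members 7 had the larger SD in wild type, as did 70.2% of all genes, whose median SD was 0.17 in wild type and 0.12 in SmoM2. The exceptions were E2f2, E2f6 and E2f8. Within the 6 wild type arrays E2f3 followed Rbl1 (r = 0.96) and ran against E2f4 (r = -0.94), whereas within the 6 SmoM2 arrays r was -0.04 and -0.10. E2f5 followed Rb1 in both genotypes (r = 0.99 and 0.70), and E2f7 followed both E2f8 (r = 0.67 and 0.65) and E2f2 (r = 0.69 and 0.77). The pairs named here were picked from all pairs of members without a rule set beforehand. Same-numbered arrays of a genotype deviate together, so these correlations describe the arrays and were not tested.

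The genes with the pattern most like each member were found by Pearson's r over the 12 arrays, which holds the genotype difference itself. For E2f7 the closest of 18194 genes was Cdca8 (r = 0.97), and for E2f8 it was Cdca4 (r = 0.95). E2f3 was closest to Hnrnpll (r = 0.99), Rbl1 to Lims1 (r = 0.98), E2f1 to Aaas (r = 0.98) and E2f4 to Krt1 (r = 0.96). For Rb1 the closest gene was another member, E2f5 (r = 0.94). The closest genes for E2f5, E2f2 and E2f6 were Oip5 (r = 0.97), Triobp (r = 0.91) and Mcur1 (r = 0.88).

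No member's response to SmoM2 was shown to differ between hemisphere and vermis. The interaction test called 0 of 10 members and 0% of all genes, and no member had an unadjusted p under 0.05 (limma). The smallest unadjusted p was that of E2f5, where the difference of the responses was -0.30 with an interval of -0.70 to 0.11 (adjusted p = 1). Between hemisphere and vermis of the same genotype, 0 members were called in either genotype, as were 0.187% of genes in wild type and 0.0605% in SmoM2. In wild type all 10 members were higher in hemisphere, by a median of 0.07 against -0.002 over all genes, and 1 had an unadjusted p under 0.05. This was E2f7, 0.22 higher (adjusted p = 0.758, limma). The shared sign was not steady. It changed for E2f3, E2f6 and Rbl1 in 3 of 22 alternatives each, for E2f4 in 1 of 21 and for Rb1 in 1 of 22. In SmoM2 no member had an unadjusted p under 0.05. Same-numbered arrays of the regions varied together within a genotype. With that pairing as a random block the share of genes called rose to 1.09% in wild type and 0.214% in SmoM2, and still no member was called.

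The partners of the members changed in both directions. The dimer partners Tfdp1 and Tfdp2, which E2f1 to E2f6 need to bind DNA, moved apart. Tfdp2 read 10.12, 10.44 and 10.20 in wild type hemisphere, 9.89, 10.09 and 10.05 in wild type vermis, 9.24, 9.39 and 9.33 in SmoM2 hemisphere and 9.10, 9.28 and 9.22 in SmoM2 vermis. All SmoM2 arrays were below all wild type arrays, and Tfdp2 fell by 0.94 in hemisphere (adjusted p = 4.41e-05) and by 0.81 in vermis (adjusted p = 0.000154, limma), which held in all alternatives. Tfdp1 read 9.78, 9.62 and 9.38 in wild type hemisphere, 9.71, 9.54 and 9.46 in wild type vermis, 9.97, 10.08 and 9.96 in SmoM2 hemisphere and 9.98, 10.09 and 9.998 in SmoM2 vermis. It rose by 0.41 in hemisphere (adjusted p = 0.0253) and 0.45 in vermis (adjusted p = 0.0153).

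Rbl2, the third pocket protein (p130), rose as well. It read 7.52, 7.42 and 6.96 in wild type hemisphere, 7.62, 7.38 and 7.30 in wild type vermis, 7.82, 7.87 and 8.01 in SmoM2 hemisphere and 7.87, 8.05 and 7.94 in SmoM2 vermis, again with wild type hemisphere replicate 3 lowest. Rbl2 was 0.56 higher on average over the regions (adjusted p = 0.000772). The calls of Tfdp1 and Rbl2 within single regions were lost when certain arrays of that region were left out (adjusted p up to 0.0908 and 0.0859), and their averages held in every alternative. Of the 10 genes of this list, which adds the MuvB core of DREAM with Mybl2 and Foxm1, 2 rose and 1 fell in each region. Averaged over the regions 3 rose, Rbl2, Tfdp1 and the MuvB subunit Lin54 (0.28, adjusted p = 0.0161, limma). Of all genes 7.62% rose in hemisphere, 7.56% in vermis and 15.4% averaged over the regions. The shares that fell were 7.18%, 9.46% and 20.1%.

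Upstream of the pocket proteins, the kinase Cdk6, the D cyclins Ccnd1 and Ccnd3 and the inhibitor Cdkn1c rose, while the D cyclin Ccnd2 and the inhibitor Cdkn1b fell averaged over the regions. Cdk6, a kinase that phosphorylates Rb1 together with D cyclins, read 8.73, 8.77 and 8.75 in wild type hemisphere, 8.46, 8.42 and 8.55 in wild type vermis, 10.66, 10.70 and 10.72 in SmoM2 hemisphere and 10.57, 10.65 and 10.63 in SmoM2 vermis. It was 1.95 higher in SmoM2 hemisphere (adjusted p = 5.32e-09) and 2.14 higher in vermis (adjusted p = 3.21e-09, limma). Ccnd1, cyclin D1, rose by 1.37 and 1.59, and Cdkn1c, an inhibitor of these kinases, by 0.81 and 0.66. Ccnd3 rose by 0.70 and 0.59, though its probe sets averaged to 0.09 and 0.03 with no call. Ccnd2 fell by 0.21 averaged over the regions (adjusted p = 0.0269) and passed in neither region alone. Of 21 alternatives 7 lost that call, among them the fits without wild type vermis replicate 3 and without replicate 1 or 3 of either SmoM2 group (adjusted p from 0.0516 to 0.071). Cdkn1b fell by 0.29 on average (adjusted p = 0.00788) and by 0.34 in hemisphere (adjusted p = 0.0367, limma). The hemisphere call was lost in 9 of 22 alternatives, among them the fits without wild type hemisphere replicate 1 or 2, any SmoM2 hemisphere array, or SmoM2 vermis replicate 1 or 2 (adjusted p from 0.0519 to 0.12). With all Cdkn1b probe sets averaged the differences were 0.038 in hemisphere (adjusted p = 0.88) and -0.05 on average (adjusted p = 0.738). Of the 15 cyclins, kinases and inhibitors acting on Rb, 5 rose in each region and 1 fell in hemisphere, and averaged over the regions 6 rose and 2 fell. The median of the list was 0.06 in hemisphere and 0.13 in vermis, against -0.05 and -0.06 over all genes. Of all genes 7.62% rose and 7.18% fell in hemisphere, and 7.56% rose in vermis. Averaged over the regions 15.4% of all genes rose and 20.1% fell.

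Among 26 measured genes of the list of E2F targets that act in G1 and S phase, 12 rose in hemisphere, 14 in vermis and 18 averaged over the regions, and none fell in any of the 3. Their medians, 0.31, 0.39 and 0.38, were close in size to those of the members, against -0.05, -0.06 and -0.06 over all genes. Of all genes 7.62%, 7.56% and 15.4% rose in these comparisons. Mcm3 and Mcm4, subunits of the replicative helicase, rose on average by 0.59 and 0.58, Cdc6, which loads that helicase, by 0.61, and Rrm2, a subunit of ribonucleotide reductase, by 0.47. The hemisphere count ran from 5 to 13 and the vermis count from 7 to 16 over the alternatives, and no alternative had a gene of the list fall.

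The G2 and M phase genes bound by the DREAM complex that passed the test were all higher. Of 15 measured, 0 were called in hemisphere (limma; 3 had an unadjusted p under 0.05, all higher), 7 rose in vermis and 9 rose averaged over the regions, and none fell. Those with the smallest p were Kif20a, a kinesin of cytokinesis (0.63, adjusted p = 0.00316), the mitotic kinase Plk1 (0.60, adjusted p = 0.00331), the anaphase activator Cdc20 (0.33, adjusted p = 0.0048) and the checkpoint kinase Bub1 (0.44, adjusted p = 0.0121). The interaction test called 0 of the 15 genes, and none had an unadjusted p under 0.05. The share of all genes that rose in SmoM2 was 7.62% in hemisphere, 7.56% in vermis and 15.4% averaged over the regions. The hemisphere count ran from 0 to 4 and the vermis count from 0 to 11 over the alternatives. The proliferation marker Mki67 was 0.26 higher on average (adjusted p = 0.0111), while Pcna and Top2a gave 0.13 and 0.15 and did not pass.

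**Figure D4:**
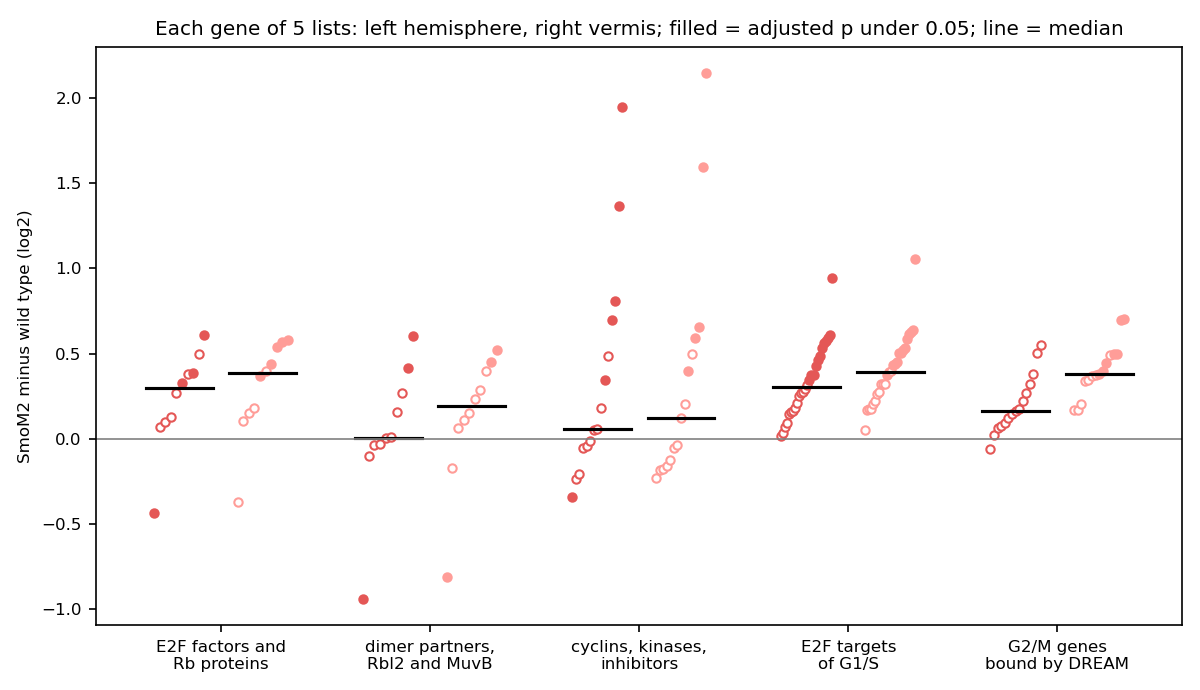
SmoM2 minus wild type (log2, y axis) for every measured gene of 5 lists on the x axis, hemisphere to the left and vermis to the right in each pair. Filled points have an adjusted p under 0.05 over all genes, and lines are list medians, which lie between 0.30 and 0.39 for both the members and the E2F targets of G1 and S phase.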

How the data were processed

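Granule cell progenitors of 4 groups, wild type or SmoM2 and hemisphere or vermis, were read on 12 Affymetrix arrays, with 3 pools of 5 mice in each group. The deposited values are log2 expression, made by the authors with RMA and Partek, per the submitters' processing notes, with versions not given in the sources used here. The method subtracts background, quantile-normalizes the arrays and summarises the probes of a set, so low values are compressed and one probe set's level cannot be set against another's. Array number, not a read depth, limits the precision.

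Of 45101 probe sets 64 controls were left out and 34958 carried 1 symbol in the platform annotation, an older table, giving 18194 genes by the brightest probe set. limma 3.58.1 in R 4.3.3 (lmFit, eBayes, a mean per group, 8 residual degrees of freedom before moderation) tested 6 contrasts, two-sided, with Benjamini-Hochberg adjustment and a threshold of 0.05. The script was tested on simulated data. Errors are SE and intervals are 95%. Alternatives were another normalization, centring, probe set rules, a filter on dim genes, moderation, array weights, the groups fitted, replicate blocks and each array left out.

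All 10 members are named. Of each list the text names up to 4 genes with the smallest p for the averaged SmoM2 effect; Neurod1, Cntn2, Gli1, Ccnd2, Cdkn1b, Mki67, Pcna, Top2a and the germline genes that did not pass were named with their values known. The members and the lists of partners, targets and markers were chosen with earlier results of these data known. Same-numbered hemisphere and vermis arrays deviated together within each genotype (r from 0.34 to 0.53 in wild type and from 0.14 to 0.27 in SmoM2), which pairs the regions within a genotype; the labels do not say that they came from the same mice. Across genotypes, r ran from -0.22 to 0.28 and the numbers pair nothing.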

Additional observations from a re-analysis of the deposited data

How the results depend on the processing

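The calls depended on settings more in the single regions than in their average. In hemisphere 4 members were called. This became 1 after another quantile normalization, 2 with each array centred on its median, 2 when all probe sets were tested and 0 with only the groups compared, and it ranged from 0 to 6 over the fits that left out 1 array. The 5 calls in vermis became 1 when all probe sets of a gene were averaged, and ranged from 1 to 6 without 1 array. The 7 calls of the average over the regions became 4 with averaged probe sets, where the difference of E2f5 turned to -0.027 (adjusted p = 0.715); that of Cdkn1b in hemisphere turned to 0.038 in the same setting. The cause was not tested. After another quantile normalization the average kept its 7 calls, while the averaged difference of every member became smaller in size. That of E2f3 became 0.51, that of E2f5 0.32 and that of E2f4 -0.29. The lower quartile of the array values was 3.24 to 3.29 in SmoM2 and 3.31 to 3.42 in wild type. The part of that shift in the members' differences was not tested. A fixed block by replicate number also ties arrays across genotypes, where the numbers pair nothing. Its counts were 6, 6 and 7 in hemisphere, vermis and their average. With genotype and number as a random block, chosen after seeing the data, they were 4, 4 and 7, E2f8 in vermis being lost (adjusted p = 0.0507), and the genes called for the average fell from 6451 to 4312, 23.7%. The block called no member between the regions and no interaction. Of 1294 single values of the members under other settings 1217 kept their side of the threshold, with 52 of these changing sign while neither value passed. A call was lost in 65, gained in 11 and reversed in 1. That total includes the interaction and the comparisons between regions, where no setting called a member, so it understates how often calls were lost. In hemisphere E2f3 lost its call in 3 of 22 alternatives, E2f4 in 15 of 21, E2f7 in 7 of 22 and E2f8 in 14 of 22. In vermis E2f1 lost its call in 4 of 22, E2f3 in 5, E2f5 in 2, E2f8 in 13 and E2f7 in 0. With 3 arrays in each group and a median SD of 0.16 within groups, small differences cannot be told from none.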
